A study of Mus musculus with 77 samples.

Results

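Pancreatic ductal organoids that had expressed 6S-A Ngn3 for 8 days were compared with their own no-color control. These no-color cells are taken here as cells lacking the reporter that were sorted from the same organoids. The comparison holds the 12 libraries labelled as 6S-A Ngn3 or as its own no-color control at 8 days, of 77 libraries in the series, and the labels alone chose them. Each library was made from a pool of 50 sorted cells. There were 6 pools in each group, 3 from replicate 1, 2 from replicate 2 and 1 from replicate 3, and the pools of a biological replicate were summed, which gave 3 replicates against 3.

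Organoids were grown from pancreatic ducts of C57BL/6 mice and infected with a Tet-on lentiviral pair, in which a transactivator switches on the transgene. The transgene encoded GFP, a 2A cleavage peptide and HA-tagged 6S-A Ngn3, a form of the protein whose 6 serines in serine-proline sites were changed to alanine so that they cannot be phosphorylated. The 6S-A Ngn3 pools were GFP-positive cells. The labels name the no-color cells as the control of 6S-A Ngn3, and they are taken here to have gone through the same culture and infection. On that reading the comparison sets cells with a visible transgene against neighbours without one. The paper's legend for fold changes at 2 and 8 days gives the control as GFP only. A cell that took up the virus but showed no GFP would be sorted as no-color. Replicates 1 and 2 were organoids of passage 2 and replicate 3 was of passage 5 in both groups, so passage does not differ between the groups. The labels do not say whether the replicates came from separate mice, and the p-values measure the spread between the samples fitted only. The main fit held all 4 groups of 8 days, so WT Ngn3 (the form without the changes) and its no-color cells also enter that spread.

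Neurogenin3 (Ngn3, gene Neurog3) is a basic helix-loop-helix transcription factor that binds DNA at E-boxes and commits progenitors of the embryonic pancreas to the endocrine fate. Its known targets include other transcription factors of the islet lineage, and the cells it commits leave the ductal epithelium, stop dividing and later make hormones. Adult duct cells do not normally express it, and forced expression can start the endocrine programme in them.

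At 8 days the genes that were higher in 6S-A Ngn3 than in no-color cells included transcription factors of the endocrine lineage and genes of secretory granules and neurons, and the lower genes included some of the duct epithelium. Of the 115 genes that passed, 52 were members of the gene lists described here. Of 19696 genes tested, 82 were higher (0.416%) and 33 were lower (0.168%) at an adjusted p under 0.05 (quasi-likelihood test of edgeR, adjusted by Benjamini-Hochberg). The higher genes changed by at least 1.60 on the log2 scale, and the lower genes by between -4.55 and -1.65, while the median over all genes was 0.03. Of the 115 genes, 114 were protein-coding. All 115 had values in the 3 6S-A Ngn3 replicates that did not overlap those in the 3 no-color replicates, which was also so for 6.73% of all tested genes in the higher direction and 7.6% in the lower. At an unadjusted p under 0.05 there were 1812 genes.

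The count of called genes depended on the model. A replicate block, which pairs each 6S-A Ngn3 replicate with the no-color cells of its own number, gave 234 genes that were higher (1.19%) and 163 lower (0.828%), and 114 of the 115 genes were among them. Without 6S-A Ngn3 replicate 3, 63 genes were higher and 1 was lower. Without no-color replicates 1, 2 or 3 the counts were 33 and 6, 33 and 14, and 18 and 1. The organoids of passage 2 alone gave 33 higher genes and 1 lower. A fit of only the 2 groups compared, without WT Ngn3 and its no-color cells, gave 67 higher genes and 16 lower. Across the 6 fits that left out 1 replicate, 17 higher genes passed every time, and no lower gene passed more than 4 times.

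**Figure D1:**
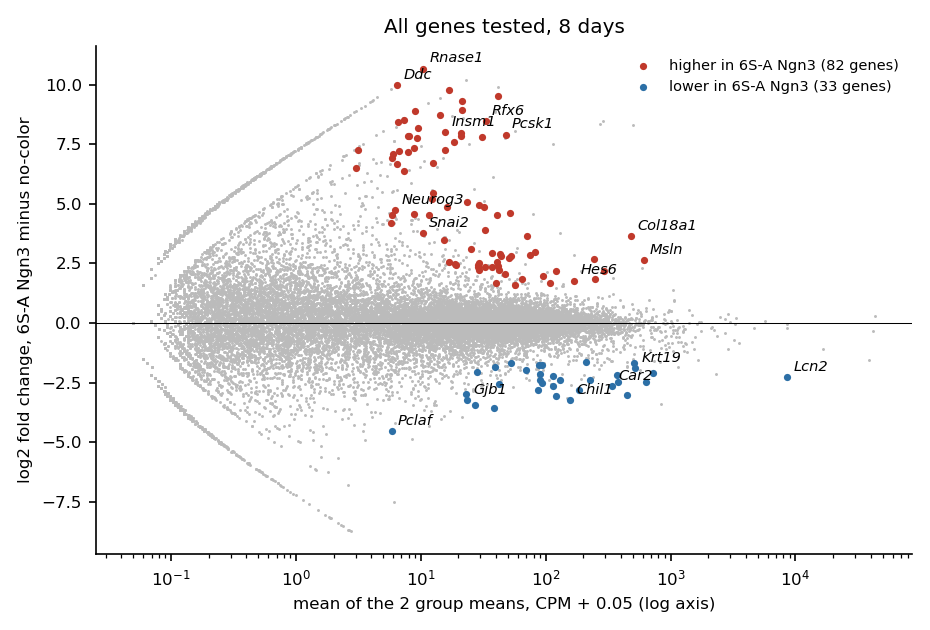
Each point is 1 of the 19696 genes tested, with the mean level of both groups on the x axis (CPM + 0.05, log axis) and the log2 fold change of 6S-A Ngn3 over no-color cells on the y axis, and the 82 higher and 33 lower genes are colored. Most called genes lie above 0, and the higher genes reach larger changes than the lower ones.

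The replicates held 15162134, 8479113 and 6827457 reads on genes for 6S-A Ngn3 and 17919627, 11922667 and 9202142 for the no-color cells, in the order of replicates 1, 2 and 3, which all lists of values below keep. A count of 3 reads, taken as the limit of detection, stood for 0.198 to 0.439 CPM (reads of a gene per 1000000 reads on genes, scaled by edgeR) in 6S-A Ngn3 and 0.167 to 0.326 CPM in the no-color cells. Correlations of log CPM were 0.874 to 0.921 between 6S-A Ngn3 replicates and 0.937 to 0.949 between no-color replicates, and 0.873 to 0.935 between a replicate of one group and one of the other, a range that covers that of the 6S-A Ngn3 replicates. Mitochondrial transcripts took 3.33% to 12.7% of the reads in the 6S-A Ngn3 pools and 3.08% to 9.40% in the no-color pools. Keratins of duct cells were found in both groups. Krt7 measured 1272, 1019 and 835 CPM in 6S-A Ngn3 and 1115, 868 and 1105 CPM in no-color cells, while Krt19 was lower in 6S-A Ngn3, at 216, 237 and 207 CPM against 980.5, 579.6 and 919.9 CPM. In pools of cells, fewer cells that express a gene and less RNA of it per cell cannot be told apart.

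Neurog3 itself, the targeted gene, lies at chr10:62133090-62134763 on the plus strand of GRCm38. It measured 9.50, 12.2 and 14.3 CPM in 6S-A Ngn3 and 0.348, 0.947 and 0 CPM in no-color cells, so every 6S-A Ngn3 replicate was above every no-color replicate. The log2 fold change was 4.72 ± 0.99 (SE, n = 3 and 3, edgeR adjusted p = 0.0422). GFP and Ngn3 come from 1 transgene and the pools were sorted on GFP, so a higher Neurog3 was set by the sort. Its p-value is no test of an endocrine programme. Reads of the transgene and of the endogenous gene cannot be told apart in a count per gene, and 16.3% of the gene's exon bases also belong to Fam241b. The call was close to the threshold. It held without 6S-A Ngn3 replicate 1 (adjusted p = 0.0498) and not without any other replicate, where the adjusted p from edgeR ranged from 0.0594 to 0.181. With only the 2 groups compared in the fit it was lost as well (edgeR adjusted p = 0.128).

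Several transcription factors of the endocrine lineage were higher beside Neurog3, whose own rise was set by the sort. Of 39 such genes listed, 28 were tested, 8 were higher and none was lower (12 higher and 1 lower with the replicate block). Beside this count and the list counts below, 0.416% of all tested genes were higher and 0.168% lower. With the block these shares were 1.19% and 0.828%. The median log2 fold change was 5.95, or 5.18 with 2 genes without a read in no-color cells set at their lower bound, against 0.03 over all genes. The 8 higher genes were Neurog3, which the sort selected, and Neurod1, Insm1, Rfx6, St18, Myt1, Nkx2-2 and Cbfa2t3. Of the 28, 16 had a mean in no-color cells below the 0.326 CPM that 3 reads stand for in its shallowest replicate. Genes were tested if at least 5 libraries of 8 days had a read, and a gene with few reads in no-color cells could meet this only through the Ngn3 libraries. The medians and signs of the tested members of this list and of the hormone, granule, secretory and neuronal lists are therefore set in part by that filter and are descriptions only.

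Neurod1, a basic helix-loop-helix factor directly downstream of Neurogenin3, measured 54.1, 24.7 and 14.9 CPM against 0.406, 0.0861 and 0 CPM in no-color cells. Its log2 fold change was 7.26 ± 1.23 (edgeR adjusted p = 0.0121), and the call was lost without no-color replicate 2 (0.0721) or 3 (0.0807). Insm1, a zinc-finger repressor needed for endocrine cells to mature, measured 17.2, 51.1 and 24.9 CPM against 0.0579, 0.258 and 0 CPM. Where Neurod1 was highest in replicate 1, Insm1 was highest in replicate 2. Insm1 had the smallest adjusted p of the list (log2 fold change 8.01 ± 0.89, edgeR adjusted p = 0.000733) and passed in all 6 fits that left out a replicate. Rfx6, a winged-helix factor that islet cells need to form, measured 113, 51.8 and 32.6 CPM against 0.348, 0.0861 and 0 CPM (log2 fold change 8.48 ± 1.22, edgeR adjusted p = 0.00552), and passed in all 6 as well. These 3 genes lie at chr2:79452521-79456751 (minus strand), chr2:146221921-146225020 (plus strand) and chr10:51677756-51730432 (plus strand), and exons of Neurod1 overlap those of Cerkl and Gm26755.

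St18 and Myt1, zinc-finger factors of the same family found in neurons and endocrine cells, were nearly without reads in no-color cells. St18 measured 80.99, 19.3 and 27.9 CPM against 0.174, 0 and 0 CPM, a ratio of 660 with a 95% counting interval of 225 to 3203, since the no-color replicates held 3 reads (edgeR adjusted p = 0.00380). Myt1 measured 32.6, 9.09 and 12.01 CPM against 0.0579, 0 and 0 CPM (edgeR adjusted p = 0.0308). Both were highest in replicate 1. St18 passed in all 6 fits that left out a replicate, while Myt1 passed only without 6S-A Ngn3 replicate 2 (0.0460) and otherwise had adjusted p-values of 0.0511 to 0.181. Nkx2-2, a homeodomain factor of islet progenitors, measured 7.58, 4.15 and 6.72 CPM against 0, 0.0861 and 0 CPM (edgeR adjusted p = 0.0163), and was lost without no-color replicate 1 (0.104) or 3 (0.0950). It was also lost with only the 2 groups compared in the fit (edgeR adjusted p = 0.0624). Cbfa2t3, a transcriptional co-repressor, had the most even values, 39.7, 38.4 and 46.5 CPM against 0.290, 0 and 0.119 CPM (log2 fold change 7.99 ± 1.14, edgeR adjusted p = 0.00380), and passed in all 6. Counting intervals cover counting error only, since Smart-seq2 reads carry no molecular identifiers.

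Several other factors of the islet lineage were far above the no-color cells in some replicates and did not pass the test. Isl1, a LIM-homeodomain factor of all islet cell types, measured 149, 45.9 and 55.0 CPM against 0.174, 0 and 0 CPM (edgeR adjusted p = 0.155, and 0.0293 with the replicate block). Pax6, a paired-box factor of islet cells, measured 59.3, 29.6 and 0.858 CPM against 0.521, 0.0861 and 0 CPM (adjusted p = 0.0834, and 2.72e-05 with the block). Replicate 3, of passage 5, was close to the limit of detection for Pax6 but not for Isl1. Atoh8, another helix-loop-helix gene, measured 4.31, 9.43 and 0.286 CPM against 0.0579, 0 and 0 CPM (adjusted p = 0.0803, and 0.0434 with the block). Pax4, a paired-box factor of early islet cells, measured 6.18, 1.01 and 0 CPM and had no read in no-color cells (adjusted p = 0.255), and Fev, a marker of serotonin-type and endocrine progenitor cells, measured 0.641, 7.86 and 0 CPM and also had none (0.290).

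**Figure D2:**
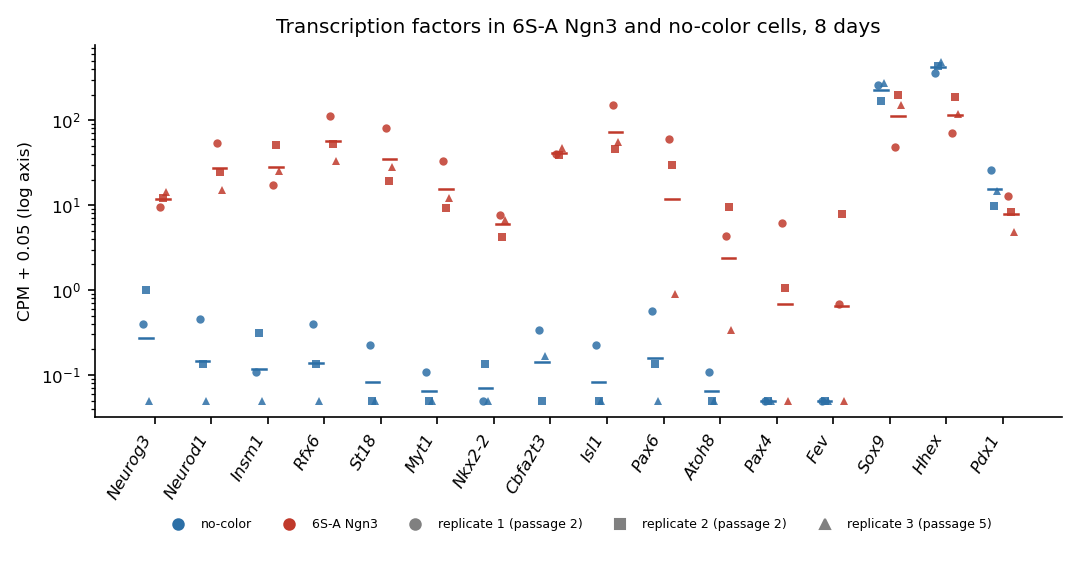
Levels of 16 transcription factor genes (CPM + 0.05, log axis), with 1 point per replicate (circle and square for replicates 1 and 2 of passage 2, triangle for replicate 3 of passage 5), no-color cells in blue and 6S-A Ngn3 in red, and a bar at the geometric mean of CPM + 0.05. For the 8 higher genes the red points all lie above the blue ones, replicate 3 drops towards the blue points for Pax6 and Atoh8, and for Hhex at the right the red points all lie below the blue ones.

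Since E-boxes of the form CANNTG are what helix-loop-helix factors recognise, the promoters of the called genes were searched, and 4 of them, chosen after the matches were known, are printed here. Each runs from 250 bases before to 50 bases after a RefSeq transcript start (GRCm38.p6), 5′ to 3′ on the gene's strand. Capitals mark CAGATG, 1 of the E-boxes, or its reverse complement CATCTG. A window was at hand for 56 of the 82 higher and 22 of the 33 lower genes, and for 11829 of the 19585 tested symbols. Neurod1 (chr2:79456587-79456886, minus strand) is the classical downstream gene and holds no CAGATG in this window, Nkx2-2 (chr2:147186353-147186652, minus strand) holds 1, Gng4 (chr13:13783809-13784108, plus strand) holds 2 on opposite strands, and Cadps (chr14:12823030-12823329, minus strand) holds 1.
Neurod1: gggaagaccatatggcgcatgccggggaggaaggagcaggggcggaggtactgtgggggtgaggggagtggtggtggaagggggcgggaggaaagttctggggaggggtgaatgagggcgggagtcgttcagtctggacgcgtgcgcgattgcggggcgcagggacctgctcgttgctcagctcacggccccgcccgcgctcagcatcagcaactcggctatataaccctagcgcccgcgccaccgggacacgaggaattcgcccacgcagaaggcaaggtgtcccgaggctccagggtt
Nkx2-2: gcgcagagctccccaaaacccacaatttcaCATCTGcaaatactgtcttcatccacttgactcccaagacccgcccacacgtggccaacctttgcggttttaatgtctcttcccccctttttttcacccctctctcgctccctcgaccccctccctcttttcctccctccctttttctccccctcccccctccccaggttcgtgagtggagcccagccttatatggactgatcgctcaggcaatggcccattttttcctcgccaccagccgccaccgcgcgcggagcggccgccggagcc
Gng4: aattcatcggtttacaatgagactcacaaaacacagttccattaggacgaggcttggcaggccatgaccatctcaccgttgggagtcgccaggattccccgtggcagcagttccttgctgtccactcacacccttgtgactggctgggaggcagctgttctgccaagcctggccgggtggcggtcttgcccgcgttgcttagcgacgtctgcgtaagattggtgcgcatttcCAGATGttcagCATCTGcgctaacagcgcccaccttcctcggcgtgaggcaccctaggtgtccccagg
Cadps: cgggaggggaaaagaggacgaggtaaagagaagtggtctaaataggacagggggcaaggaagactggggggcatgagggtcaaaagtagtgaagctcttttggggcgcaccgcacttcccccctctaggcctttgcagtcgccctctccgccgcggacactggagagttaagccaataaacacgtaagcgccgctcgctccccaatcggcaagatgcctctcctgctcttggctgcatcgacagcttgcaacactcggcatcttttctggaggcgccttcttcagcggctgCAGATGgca

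The match begins at position -220 in Nkx2-2, at -18 and -7 in Gng4 and at 41 in Cadps, counted with 0 at the first transcribed base. A gene can have several windows and was counted if any of them held the letters. CAGATG on either strand was found for 11 of the 56 higher genes (19.64%), 7 of the 22 lower genes (31.82%) and 14.08% of all tested genes with a window of this length. Any CANNTG, which includes CAGATG, was found for 69.64%, 86.36% and 68.2%. A match describes letters in the window and does not show a bound site.

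The peptide hormones, the products that define islet cell types, were uneven across the replicates. Of 24 symbols listed, 22 genes were in the table, 8 were tested and none passed (1 higher with the replicate block). Summed over the list, the hormones took 3126, 1694 and 75.3 CPM in 6S-A Ngn3 and 15.8, 10.8 and 11.5 CPM in no-color cells. Replicate 3 of 6S-A Ngn3 was above the no-color replicates in this sum, at a small part of the level in the other replicates.

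Somatostatin (Sst, chr16:23889573-23890958, minus strand), the hormone of delta cells, measured 1529, 1440 and 2.29 CPM against 5.74, 1.21 and 2.15 CPM. Across the single pools of 50 cells, Sst was 2021, 1717 and 870 CPM in the pools of replicate 1, 830 and 1974 CPM in those of replicate 2, and 2.34 CPM in the pool of replicate 3, where the no-color pools ranged from 0.753 to 7.66 CPM. All 5 pools of passage 2 were therefore high, and the single pool of passage 5 lay within the no-color range, and passage, replicate and this single pool cannot be told apart. Of the 6 pools of 6S-A Ngn3 it also had the highest share of mitochondrial reads (12.7%, with 3.33% to 9.18% in the others), of spike-ins (0.279%) and of ribosomal protein transcripts (2.02%), and the fewest genes detected (15847, with 16506 to 17518 in the others). The no-color pool of replicate 3 had 8.16% mitochondrial reads and 16440 genes. The part of these differences in the levels of Sst, Chgb, Pax6 and other genes low in this pool was not tested. The log2 fold change was 8.32 ± 2.82 (edgeR adjusted p = 0.379, and 0.426 with passage 2 alone). Ghrelin (Ghrl, chr6:113716119-113719880, minus strand), the hormone of epsilon cells, measured 1497, 97.3 and 33.2 CPM against 2.32, 2.32 and 0.119 CPM, with all 3 replicates above the no-color cells. Its pools stood at 1226, 1925 and 1546 CPM, at 186 and 21.6 CPM, and at 33.9 CPM (log2 fold change 8.35 ± 2.92, edgeR adjusted p = 0.391).

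Peptide YY (Pyy), a hormone of PP-type islet and gut endocrine cells, measured 41.5, 96.5 and 0.143 CPM against 0.0579, 0 and 0 CPM (edgeR adjusted p = 0.392). Within replicate 2 its pools differed widely, with 0.243 and 180 CPM, and in replicate 1 they ranged from 34.6 to 51.5 CPM. Islet amyloid polypeptide (Iapp), which beta and delta cells release, measured 28.8, 50.2 and 0.143 CPM against 0.463, 0.172 and 0.119 CPM (edgeR adjusted p = 0.272, and 0.0229 with the replicate block). The pool of replicate 2 with 180 CPM of Pyy also held 93.4 CPM of Iapp, and the other pool held 0.486 CPM. Cholecystokinin (Cck) was found in 2 of the 3 pools of replicate 1, at 13.1 and 11.5 CPM, and had no read in the other 4 pools of 6S-A Ngn3. Over the same 6 pools Neurog3 ranged from 7.45 to 14.6 CPM and Insm1 from 13.3 to 67.8 CPM.

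DESeq2 called Ghrl (adjusted p = 0.00175), Pyy (0.00988) and Iapp (0.0361) higher and gave no adjusted p for Sst. In edgeR without a filter on low counts all 4 passed, with adjusted p-values from 5.39e-48 to 3.80e-09, and without 6S-A Ngn3 replicate 1 the log2 fold change of Ghrl was 5.29.

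No read of either insulin gene (Ins1, Ins2) or of pancreatic polypeptide (Ppy) was found in any of the 6 replicates, and glucagon (Gcg) had 1 read, in no-color replicate 2. At this depth a gene without a read could stand at up to 0.198, 0.354 and 0.439 CPM in the 6S-A Ngn3 replicates. Gastrin (Gast), secretin (Sct) and neuropeptide Y (Npy) had 2, 5 and 5 reads in 6S-A Ngn3 and none in no-color cells. The remaining tested hormones, galanin (Gal), Adm2, Spx and Gip, had log2 fold changes of 2.29, 1.27, 3.58 and 0.83 and adjusted p-values of 0.556 or more. The values of Spx and Gip rested on replicate 1, and without it both were below 0.

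**Figure D3:**
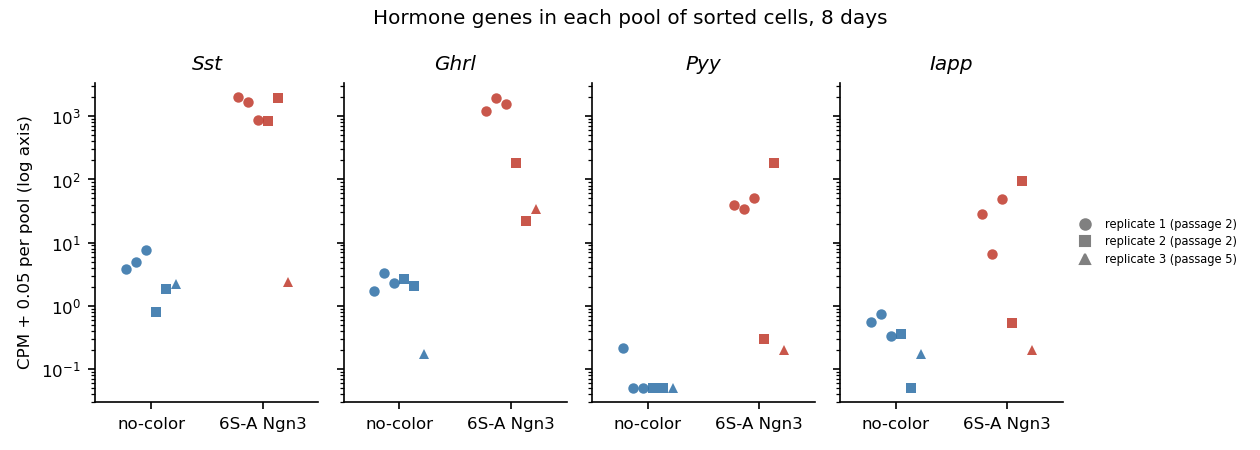
Levels of Sst, Ghrl, Pyy and Iapp in each of the 6 pools of 50 cells per group (CPM + 0.05, log axis), grouped by replicate, with no-color cells in blue and 6S-A Ngn3 in red. The 5 pools of passage 2 are high for Sst, the pool of replicate 3 is within the no-color range for Sst, and the 2 pools of replicate 2 differ widely for Pyy and Iapp.

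Transcripts of several proteins that pack and process hormones in secretory granules were higher. Of 19 genes for granins and prohormone processing, 18 were tested, 5 were higher and none was lower (10 higher with the replicate block), with a median log2 fold change of 6.95, or 5.98 with 1 gene without a read in no-color cells set at its lower bound. Over all tested genes 0.416% were higher and 0.168% lower. Pcsk1, which cleaves prohormones, measured 205, 24.6 and 55.6 CPM against 0.463, 0.516 and 0.119 CPM (log2 fold change 7.90 ± 1.25, edgeR adjusted p = 0.0140). Scg3 and Scg5, a granin and a chaperone of prohormone convertase, had log2 fold changes of 7.78 ± 1.30 and 4.95 ± 0.96, with adjusted p-values of 0.0163 and 0.0305. Ptprn and Ptprn2, membrane proteins of the granule, had changes of 4.61 ± 0.66 and 6.38 ± 1.26, with adjusted p-values of 0.00380 and 0.0287. Ptprn, at 185, 56.5 and 57.0 CPM against 2.55, 5.68 and 4.06 CPM, passed in all 6 fits that left out a replicate, while Pcsk1, Scg3, Scg5 and Ptprn2 passed in 3, 4, 2 and 1 of them. These 4 were lost without no-color replicate 3, where the adjusted p was 0.0950 for Pcsk1, 0.105 for Scg3, 0.182 for Scg5 and 0.129 for Ptprn2.

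The chromogranins, the bulk proteins of the granule, were uneven across the replicates and did not pass. Chga measured 649, 23.4 and 10.3 CPM against 1.80, 1.72 and 0 CPM (edgeR adjusted p = 0.320), and Chgb measured 963, 743 and 1.72 CPM against 3.48, 0.603 and 0.478 CPM (0.302). For Chgb, as for Sst, replicates 1 and 2 were high and replicate 3 was near the no-color values. Pcsk2, the convertase that makes mature glucagon and somatostatin, measured 276, 51.1 and 9.15 CPM against 0.463, 0.603 and 0.119 CPM (adjusted p = 0.247, and 0.00489 with the block). Cpe, which trims the cleaved peptides, measured 255, 359 and 329 CPM against 32.9, 115 and 59.2 CPM (adjusted p = 0.0696, and 0.00300 with the block).

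Genes of the machinery that releases granules and of the channels that trigger it were higher for a few members. Of 30 tested exocytosis genes (35 listed), 3 were higher and none lower, with a median of 2.56 (7 higher with the block), and of 26 tested ion channel genes (33 listed), 2 were higher and none lower, with a median of 3.17 (6 with the block). Cadps, which primes granules for release, measured 28.8, 17.1 and 9.15 CPM against 0.174, 0 and 0 CPM (edgeR adjusted p = 0.0205). Cplx2 and Syt13, which act on the fusion of vesicles, had log2 fold changes of 4.85 ± 0.94 and 2.82 ± 0.61 (edgeR adjusted p = 0.0255 and 0.0458). Kcnb2, a delayed-rectifier potassium channel of excitable cells, measured 24.8, 9.88 and 21.6 CPM against 0.0579, 0.0861 and 0 CPM, and Cacna2d1, a calcium channel subunit, measured 67.1, 79.0 and 38.7 CPM against 3.88, 5.17 and 3.22 CPM. Their adjusted p-values were 0.00991 and 0.00900. With 1 replicate left out they passed in 3, 2, 1, 4 and 5 of 6 fits in the order named, and without no-color replicate 3 none passed, at 0.104, 0.0739, 0.245, 0.0739 and 0.0739. Abcc8, the sulfonylurea receptor of the beta cell potassium channel, measured 122, 22.9 and 0.858 CPM against 0.348, 0.258 and 0.119 CPM. It did not pass in the main fit and passed with the block (edgeR adjusted p = 0.210, and 0.000118 with the block).

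Neuronal genes and genes of G protein, calcium and cAMP signalling, which islet cells share with neurons, rose in part. Of 37 tested neuronal genes (46 listed), 7 were higher and none lower (9 higher with the block), with a median of 2.87. Nxph1, a secreted ligand of neurexins, measured 59.8, 12.2 and 28.3 CPM against 0.0579, 0 and 0 CPM, with 1 read in all no-color cells, which gave a ratio of 1503 with a counting interval of 269 to 59410 (edgeR adjusted p = 0.000825). Nptx1 and Nptx2, pentraxins that gather receptors at synapses, had log2 fold changes of 7.83 ± 0.93 and 5.43 ± 0.73 (edgeR adjusted p = 0.000923 and 0.00238). Nptx1 was even across replicates, at 39.6, 37.5 and 48.0 CPM against 0.348, 0.0861 and 0 CPM. These 3 genes passed in all 6 fits that left out a replicate, while the other 4, Ncam1, Dpysl3, Gdap1l1 and Miat, passed in 4, 2, 4 and 2 of them.

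Of 28 tested signalling genes (30 listed), 4 were higher and none lower (10 higher and 1 lower with the block), with a median of 2.33. They were Gng4, a G protein gamma subunit, Rapgef4, a cAMP-gated exchange factor that promotes granule release, Pde1c, a calcium-dependent phosphodiesterase, and Gper1, a G protein-coupled receptor. Gng4 measured 37.9, 29.8 and 42.7 CPM against 0.232, 0.258 and 0 CPM (log2 fold change 7.59 ± 1.18, edgeR adjusted p = 0.00672) and was lost only without no-color replicate 3 (0.0548). Rapgef4 measured 61.5, 9.21 and 14.7 CPM against 0, 0.172 and 0 CPM (adjusted p = 0.0439) and did not pass in any of the fits that left out a replicate, where it ranged from 0.0508 to 0.231. Among 7 tested genes of serotonin and amine synthesis (11 listed), Ddc, the decarboxylase that makes serotonin and dopamine, was higher and none was lower (2 higher with the block). Ddc measured 13.4, 5.28 and 19.7 CPM and had no read in no-color cells, so it was at least 156-fold higher (edgeR adjusted p = 0.0338), and it passed only without 6S-A Ngn3 replicate 2 (0.0465), with 0.0597 to 0.152 without the others.

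In the Notch pathway, in which a cell that makes ligands holds back its neighbours, most members did not pass. Of 15 tested ligand, receptor and fringe genes (17 listed), 1 was higher and none lower, with a median of 0.26, and of 14 tested effectors and inhibitors of differentiation (18 listed), 2 were higher and none lower (2 higher and 1 lower with the block), with a median of 0.14. The higher ligand was Dll4, at 35.2, 12.01 and 0.286 CPM against 0, 0.172 and 0 CPM (edgeR adjusted p = 0.0307), with replicate 3 close to the no-color values. Its call was lost without 6S-A Ngn3 replicate 1 (0.103) or no-color replicates 1 (0.162), 2 (0.0798) or 3 (0.169). Dll1, the ligand that Ngn3 activates in the embryo, measured 27.4, 20.8 and 4.002 CPM against 48.6, 36.2 and 30.8 CPM (adjusted p = 0.738). Hes1, the main repressor downstream of Notch, measured 22.4, 277 and 36.0 CPM against 33.0, 269.7 and 36.4 CPM, so that replicate 2 was high in both groups and the groups were close within each number (log2 fold change -0.02 ± 1.37). The 2 higher members of the list of effectors and inhibitors were Hes6, which antagonises Hes1, at 225, 323 and 238 CPM against 73.5, 63.6 and 92.8 CPM, and Bhlhe41, at 43.8, 61.1 and 40.2 CPM against 3.36, 16.8 and 6.80 CPM. Neither is a measure of Notch activity. Their adjusted p-values were 0.0458 and 0.0467, and with 1 replicate left out Hes6 never passed (0.0586 to 0.207) and Bhlhe41 passed only without no-color replicate 2 (0.0226).

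No transcription factor of the duct passed the test, although the values of several lay below those of no-color cells. Of 20 tested (21 listed), 13 had a log2 fold change below 0 with a median of -0.51, and with the replicate block 2 were lower. Over all tested genes the median was 0.03, and 0.828% were lower with the block. Hhex, which is made in ducts and in delta cells, is not among these 20 and was counted on the endocrine and delta-like lists. With the block it was the 1 lower member of each of those lists. Hhex measured 70.9, 189 and 118 CPM against 359.9, 436 and 479 CPM (log2 fold change -1.75, edgeR adjusted p = 0.0828, and 0.00449 with the block). All 6S-A Ngn3 replicates were below all no-color replicates. Sox9, the factor that maintains duct progenitors and activates Neurog3, measured 48.1, 198 and 150.5 CPM against 259, 167 and 277 CPM, and the groups overlapped (adjusted p = 0.745).

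Structural and transport genes of the duct epithelium fell in part. Of 36 tested structural and surface markers (37 listed), 1 was higher and 3 were lower (1 and 8 with the block), with a median of -0.83, and 29 of the 36 were below 0. Over all tested genes 0.416% were higher and 0.168% lower, and the median was 0.03. Krt19, the keratin used to mark ducts, given above, had a log2 fold change of -1.91 ± 0.33 (edgeR adjusted p = 0.0137). Lcn2, a secreted iron-scavenging protein that stressed epithelia make, fell by 2.27 ± 0.44 on the log2 scale (edgeR adjusted p = 0.0261). Krt7 had a log2 fold change of 0.02. The higher member was Tff3, a trefoil peptide of mucus-secreting and some endocrine cells, at 17.0, 70.8 and 39.7 CPM against 0.0579, 0 and 0.119 CPM (ratio 677, counting interval 187 to 5593, edgeR adjusted p = 0.00238), and it passed in all 6 fits that left out a replicate. Krt19 was lost without 6S-A Ngn3 replicate 3 (0.0552) or no-color replicate 1 (0.0722) or 3 (0.0914), and Lcn2 passed only without 6S-A Ngn3 replicate 2 (0.0348).

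Of 17 tested genes for fluid and bicarbonate transport (23 listed), the main work of ducts, none was higher and 3 were lower (6 with the block), with a median of -1.79, and 16 of the 17 were below 0. Car2, the carbonic anhydrase that makes bicarbonate, measured 100.1, 134 and 45.0 CPM against 608, 417 and 734 CPM. Kcnn4 and Kcne3, potassium channel subunits that drive chloride secretion, measured 19.0, 55.2 and 18.6 against 292, 136 and 161 CPM and 32.8, 68.6 and 25.6 against 291, 236 and 132 CPM. The 3 genes fell by 2.65 ± 0.56, 2.67 ± 0.48 and 2.38 ± 0.52 on the log2 scale, with adjusted p-values from edgeR of 0.0458, 0.0163 and 0.0481. With 1 replicate left out, Car2 never passed (0.0688 to 0.184), Kcne3 passed only without 6S-A Ngn3 replicate 2 (0.0460), and Kcnn4 passed without that replicate (0.00796) or no-color replicate 2 (0.0309). Aqp1, a water channel, had no read in 6S-A Ngn3 and 11.3, 3.19 and 1.19 CPM in no-color cells, which made it at least 71.9-fold lower (adjusted p = 0.0803, and 0.0166 with the block). Cftr, the chloride channel of ducts, was low in both groups, at 2.33, 0.225 and 0 CPM against 5.33, 4.22 and 2.75 CPM (adjusted p = 0.775).

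Most genes of DNA replication and of mitosis had a log2 fold change below 0, and none passed. Of 32 tested genes of DNA replication 31 were below 0 (median -0.97), and of 32 tested genes of G2 and mitosis 31 were below 0 (median -1.80), with 3 and 1 lower with the block. In 19 genes of DNA replication and 2 of G2 and mitosis all 6S-A Ngn3 replicates lay below all no-color replicates, beside 7.6% of all genes. The replication genes summed to 638, 571 and 486 CPM against 1386, 909 and 957 CPM, without overlap, and the G2 and mitosis genes to 106, 485 and 149 CPM against 1004, 812 and 252.5 CPM, with overlap. Genes of these lists move together in dividing cells, so the counts are not independent. Mki67, which dividing cells make, measured 3.44, 19.6 and 0 CPM against 56.8, 31.5 and 4.18 CPM (edgeR adjusted p = 0.736), so 6S-A Ngn3 was lower within each replicate number while the groups overlapped. Rrm2, a subunit of the enzyme that makes deoxynucleotides, measured 0.524, 4.38 and 0.143 CPM against 43.7, 21.8 and 15.6 CPM (log2 fold change -4.01, adjusted p = 0.226, and 0.00783 with the block). Outside these lists, Pclaf, a PCNA-binding protein of S phase, was lower at 0.175, 1.24 and 0 CPM against 14.7, 14.7 and 4.06 CPM (log2 fold change -4.55 ± 0.98, edgeR adjusted p = 0.0458), and passed with 1 replicate left out only without 6S-A Ngn3 replicate 2 (0.0186). The cyclins, Cdks and Cdk inhibitors had a median of -0.03 with none of 29 past the threshold, and Cdkn1a (p21), an inhibitor that arrests cells, measured 573, 550.1 and 1180 CPM against 396, 378 and 707 CPM, higher within each replicate number while the groups overlapped (adjusted p = 0.900, and 0.546 with the block).

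Genes of the extracellular matrix and of cells that leave an epithelium were higher for some members. Of 43 tested matrix genes (46 listed), 5 were higher and none lower (11 higher with the block), with a median of 0.62. Col18a1, a collagen of the basement membrane, measured 1448, 696 and 546 CPM against 108, 45.8 and 63.6 CPM (log2 fold change 3.63 ± 0.44, edgeR adjusted p = 0.00109). Adamts2, a protease that processes collagen, measured 35.7, 61.0 and 40.3 CPM against 2.90, 0.775 and 0.119 CPM (5.08 ± 0.78, edgeR adjusted p = 0.00635). Both passed in all 6 fits that left out a replicate. The other 3 were Adamts14, a related protease, Lamb1, a laminin chain, and Mxra8, a matrix-associated membrane protein, which passed in 5, 2 and 0 of the 6. Of 16 tested genes of delamination and the cadherin switch (17 listed), 2 were higher and none lower (4 higher with the block), with a median of 1.36.

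Snai2, a repressor that cells use to leave an epithelium, measured 11.9, 19.3 and 26.9 CPM against 1.33, 0.689 and 2.27 CPM (log2 fold change 3.76 ± 0.80, edgeR adjusted p = 0.0432). Cdh2 (N-cadherin), which islet cells carry, measured 179, 117 and 102 CPM against 10.8, 23.2 and 21.6 CPM (2.84 ± 0.55, edgeR adjusted p = 0.0255). Cdh1 (E-cadherin) did not fall beside them, with 739, 632 and 429.8 CPM against 494, 360.5 and 331 CPM (log2 fold change 0.60, adjusted p = 0.616). Snai2 passed only without 6S-A Ngn3 replicate 1 (0.0471) among the fits that left out a replicate. Cdh2 was lost without 6S-A Ngn3 replicate 1 (0.0598) or no-color replicates 1 (0.148), 2 (0.0677) or 3 (0.101).

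Other signalling lists held few called genes. Of 28 tested Wnt feedback and stem cell genes 2 were higher (Prickle2 and Shisa2, with 4 higher and 1 lower under the block), of 17 YAP and TEAD targets 1 was lower (Nuak2, with 2 higher and 1 lower under the block), of 23 interferon-stimulated genes 1 was higher (Rsad2, with 1 higher and 1 lower) and of 38 immediate early and stress genes 1 was higher (Angptl4, with 3 higher). None of 20 TGF-beta and BMP genes passed (1 higher and 1 lower with the block). With 1 replicate left out, Prickle2 passed in none of the 6 fits, and Shisa2, Nuak2 and Rsad2 passed in 1 each. The medians of these 5 lists lay between -0.38 and 0.45. Angptl4, a secreted inhibitor of lipoprotein lipase, was nearly constant within groups, at 414, 444 and 411 CPM against 63.8, 71.7 and 62.8 CPM (log2 fold change 2.68 ± 0.38, edgeR adjusted p = 0.00380), and passed in all 6 fits that left out a replicate.

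**Figure D4:**
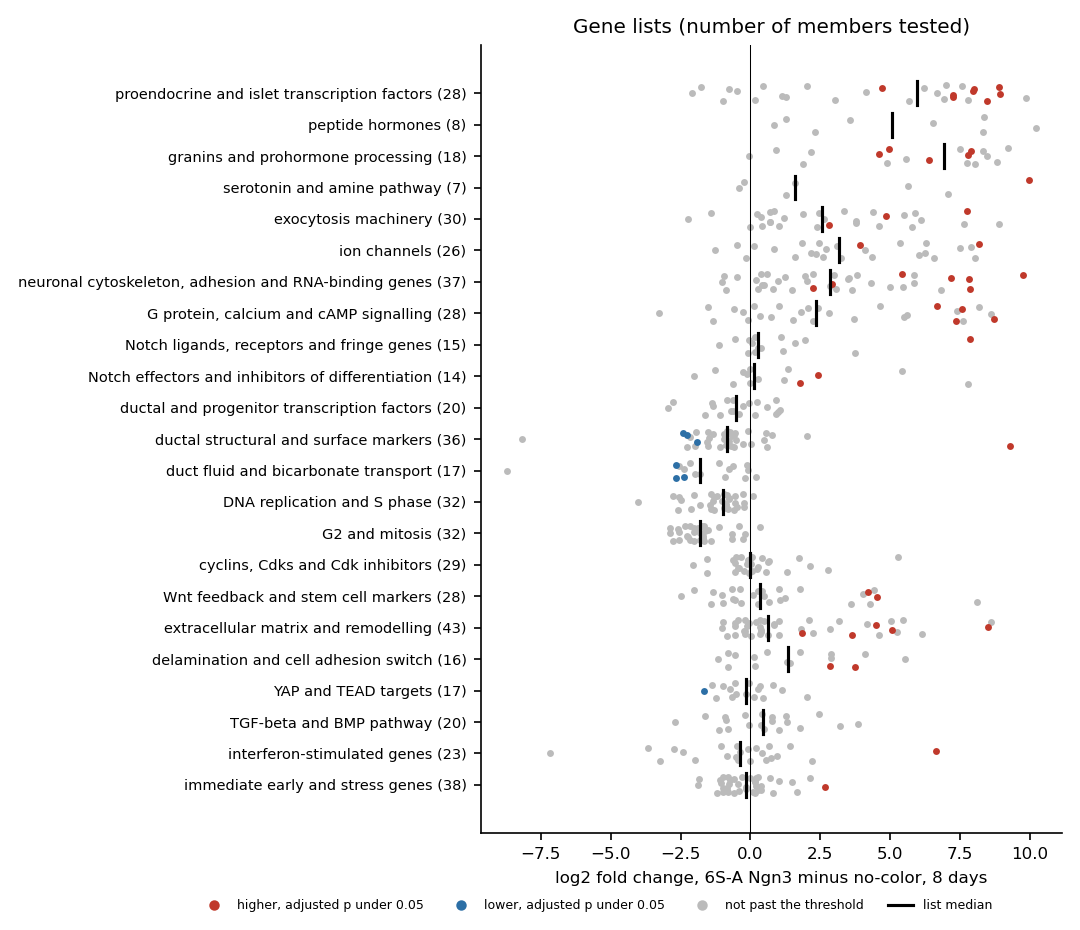
Log2 fold change of 6S-A Ngn3 over no-color cells for each tested member of 23 gene lists, 1 point per gene, with higher genes in red, lower genes in blue, the others in grey and a black bar at the list's median. The lists of endocrine and neuronal genes lie mostly above 0, with medians up to 6.95 (5.98 with a gene without no-color reads at its bound), and those of duct transport, DNA replication and mitosis lie mostly below it.

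Some of the largest changes were in genes outside these lists. Rnase1, a secreted ribonuclease, measured 4.25, 14.5 and 43.5 CPM and had no read in no-color cells, which made it at least 190-fold higher (edgeR adjusted p = 0.00672), and unlike Sst, Ghrl, Pyy and Iapp it was highest in replicate 3. Vwa5b2, whose exons overlap those of Alg3, measured 191.5, 26.0 and 32.3 CPM against 0.232, 0 and 0 CPM (log2 fold change 9.53 ± 1.72, edgeR adjusted p = 0.0306). Lrrtm3, a synaptic adhesion protein, measured 16.8, 1.80 and 20.4 CPM against 0.0579, 0 and 0 CPM (adjusted p = 0.0488). With 1 replicate left out Rnase1 always passed, Vwa5b2 passed without 6S-A Ngn3 replicates 1 (0.0461) or 2 (0.0460) only, and Lrrtm3 without 6S-A Ngn3 replicate 2 (0.0460) only. Msln (mesothelin), a surface glycoprotein, had the highest mean CPM of the higher genes in 6S-A Ngn3, with 1358, 639 and 1156 CPM against 217, 109.5 and 186 CPM (log2 fold change 2.62 ± 0.37, edgeR adjusted p = 0.00380).

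Apart from Pclaf, given above, the genes outside the lists that fell most among called genes with a mean of at least 5 CPM were Ppp2r2b, Stra6, Gjb1, Chil1, Tmeff2, Sftpd, Tmem45b, Aspa and Slpi, with log2 fold changes from -3.58 to -2.80 and edgeR adjusted p-values from 0.00991 to 0.0485. Sftpd, a surfactant lectin of mucosal defence, measured 131, 127 and 38.7 CPM against 1058, 686 and 640 CPM. Chil1, a chitinase-like secreted protein, measured 38.1, 27.2 and 24.9 CPM against 308, 190.2 and 354 CPM. Slpi, an inhibitor of secreted proteases, measured 25.4, 24.6 and 15.3 CPM against 154, 151 and 150.4 CPM. Cd14, the co-receptor for bacterial lipopolysaccharide, was among the most abundant of the lower genes, with 181, 280.5 and 117 CPM against 1075, 1184 and 1011 CPM (log2 fold change -2.50 ± 0.42, edgeR adjusted p = 0.0117). In all of these genes the groups did not overlap. Tmeff2 was the 1 called gene that did not pass with the replicate block (adjusted p = 0.0485, and 0.0538 with the block). No gene of this paragraph passed in more than 4 of the 6 fits that left out a replicate, and Slpi and Tmeff2 passed in none, at 0.102 to 0.157 and 0.0874 to 0.162.

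Markers of cell types other than duct and endocrine were low. Of 22 acinar markers 14 had no read in any replicate, and the list summed to 13.9, 17.4 and 0.143 CPM against 26.1, 24.9 and 22.6 CPM in no-color cells, with none past the threshold. Endothelial markers (11 listed, 3 without a read) summed to 8.31 to 9.29 CPM against 7.15 to 13.1 CPM, and immune markers (14 listed, 8 without a read) to 3.15 to 13.9 CPM against 4.18 to 21.8 CPM. The mesenchyme and stellate list (15 listed, 9 without a read) summed to 92.4, 52.6 and 77.8 CPM against 7.42, 9.73 and 23.4 CPM, and most of this was Ncam1, its 1 higher member, which is also on the neuronal list, at 81.7, 40.2 and 75.0 CPM against 4.69, 7.23 and 14.1 CPM. Schwann and neural crest markers (8 listed, 3 without a read) summed to 10.9 to 52.2 CPM against 44.7 to 101 CPM, and gastric and intestinal markers (19 listed, 6 without a read) to 13.9 to 32.6 CPM against 40.0 to 83.0 CPM, with no member of either list past the threshold (1 gastric and intestinal marker lower with the block). The part of these cells in the results was not tested. Among islet types, the delta-like and the PP-like and epsilon-like markers each had 1 higher member, Nkx2-2 on both, the enterochromaffin-like markers had Ddc, and the alpha-like and beta-like markers had none (6 and 5 tested). With the block 1 alpha-like and 2 beta-like markers were higher, 2 of the PP-like and epsilon-like, and 2 delta-like markers were higher and 1 was lower.

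WT Ngn3 was measured at the same time against its own no-color cells, with no sample shared between the comparisons. WT Ngn3 had 4 usable libraries with 9762561, 3034680 and 4966242 reads on genes per replicate, fewer than 6S-A Ngn3. Replicate 3 of its no-color cells was 1 pool that stood apart, with 2397470 reads on genes, 17.9% of them mitochondrial (4.89% to 9.14% in the other 5 pools) and 36.0% of reads not aligned (20.2% to 24.4% in the others). Without it the test of the difference between effects, given next, still called no gene in edgeR and had 398 genes at an unadjusted p under 0.05. Between WT Ngn3 and its own no-color cells 49 genes passed (0.249%), 37 higher and 12 lower. Of the 82 genes higher in 6S-A Ngn3, 29 were among the 37 higher in WT Ngn3 and all 82 had a log2 fold change above 0, as had 50.6% of all tested genes. Of the 33 lower genes 6 were among its 12 lower genes and all 33 were below 0, as were 49.2% of all tested genes. The test of the difference between the effects, 6S-A minus WT, found no gene past the threshold in edgeR (0%) or DESeq2, with 647 and 656 genes at an unadjusted p under 0.05. Without a filter on low counts edgeR called 104 genes for this difference, 97 higher and 7 lower. With the filter, genes called in 6S-A Ngn3 and not in WT Ngn3 are not shown to differ between them.

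For Neurog3 the log2 fold change was 4.72 in 6S-A Ngn3 and 6.31 in WT Ngn3, where the mean was 21.4 ± 19.8 CPM (SD, n = 3) against 12.01 ± 2.41 CPM in 6S-A Ngn3. Neurod1 and Rfx6 had changes of 7.26 and 8.48 in 6S-A Ngn3 and 6.50 and 7.69 in WT Ngn3. Insm1 had 8.01 and 5.99, a difference of 2.01 ± 1.12 (edgeR adjusted p = 1). The widest gap among the 8 higher transcription factors was that of Cbfa2t3, with 7.99 against 3.19 (difference 4.80, unadjusted p = 0.00277), which did not pass after adjustment. Krt19 fell by 1.91 in 6S-A Ngn3 and by 1.74 in WT Ngn3 on the log2 scale.

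**Figure D5:**
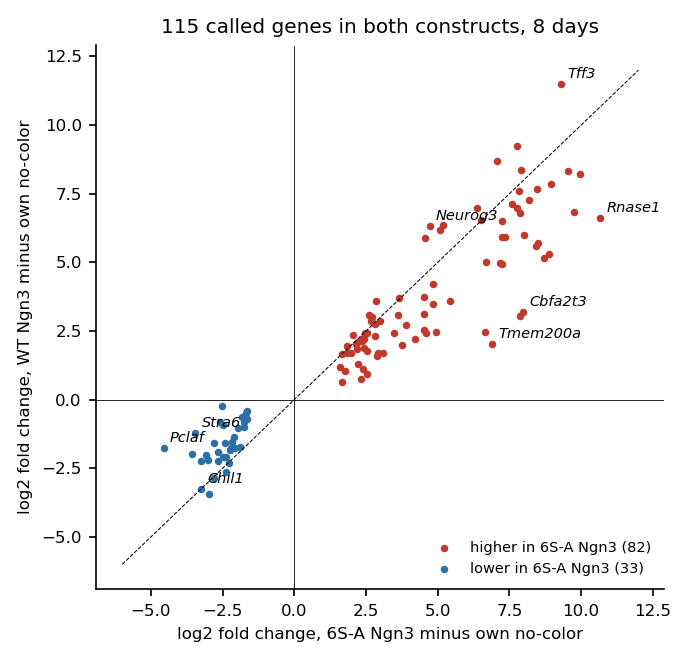
Log2 fold change of the 115 called genes in 6S-A Ngn3 over its no-color cells (x axis) and in WT Ngn3 over its own no-color cells (y axis), with a dashed line where both are equal. All 115 points have the same sign on both axes, and the x axis chose the genes, so points below the line on the right are no evidence of a weaker effect of WT Ngn3.

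At 2 days after induction 6S-A Ngn3 had been compared with cells that expressed GFP only, so time and the kind of control cannot be told apart. Of the 82 genes higher at 8 days 79 were above 0 at 2 days, and of the 33 lower genes 32 were below 0, beside 50.0% of all genes tested at both times in each direction. Neurog3 stood at 138 CPM at 2 days against 0.0523 CPM in GFP-only cells, a log2 fold change of 11.14, and the change at 8 days was smaller by 6.43 on the log2 scale (edgeR adjusted p = 0.0683). In a joint fit of 19589 genes the effect differed between the time points for 3 genes (0.0153%), which were Fads3, Gal and Lrpap1, and for 11 genes with the replicate block and 0 to 4 with 1 replicate left out. Gal, which encodes the neuropeptide galanin, was 234 CPM against 0.505 CPM at 2 days and 6.71 against 1.35 CPM at 8 days.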

How the data were processed

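Pools of 50 cells sorted from pancreatic ductal organoids were sequenced by Smart-seq2 (Nextera XT, single-end reads). The authors aligned the reads with GSNAP to mm10 and counted reads per gene of Ensembl release 81 with HTSeq 0.5.3p3, and the deposited values are these raw counts, without normalization. The strand setting is not given in the sources used here, so reads of overlapping genes cannot be told apart, and the exons of 31 of the called genes overlap another gene. The paper and the labels name different HiSeq models. The table holds 46078 genes and 92 spike-ins, and in the libraries of 8 days 21.9% of reads were not aligned, 12.1% met no gene and 8.66% were ambiguous. These lines and the spike-ins stayed out of library sizes and tests.

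The study's limits for libraries (spike-ins below 30%, more than 1000000 gene reads, more than 10000 genes detected) left 76 of 77, and all 12 of this comparison passed. Pools were summed per biological replicate. Genes detected in at least 5 retained libraries of 8 days with a variance above 0 were tested. The 4 groups of 8 days were fitted together with edgeR 4.0.16 in R 4.3.3 (TMM, robust quasi-likelihood test, Benjamini-Hochberg adjustment, threshold 0.05). CPM refer to 1000000 reads of the TMM-scaled library. A fold is given as a lower bound, against 3 reads over the group, where a group had no read, as a ratio with a 95% counting interval for 1 to 3 reads, and as the fitted value above that. The script was tested on simulated data. Genes were placed by GENCODE M21 (GRCm38) and promoters by RefSeq (GRCm38.p6).

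The replicate numbers come from the labels. Deviations from the group means correlated at 0.200, 0.265 and 0.396 between a 6S-A Ngn3 replicate and the no-color replicate of its number, so the numbers were taken as pairing the samples. The median between different numbers was -0.133. Deviations within a group sum to 0, so this value follows in part from the others and is no separate support. The main test has no block, as in the study's methods, and the blocked value stands beside the list counts and genes whose call it changes. Pools of the same replicate differed by more than sampling noise.

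Alternatives were DESeq2 1.42.0, RLE and scran 1.30.0 size factors, other filters, no library limits, the first pool of each replicate, passage 2 alone, only the groups compared, the mean of both no-color groups, the block, and leaving out each replicate. Named are Neurog3, Neurod1, Insm1, Atoh8, Rfx6 and hormone genes with a read, the 12 largest and 12 smallest changes among called genes with a mean of at least 5 CPM, members of the gene lists, and up to 5 genes per test of a difference. Cd14 and Msln were named after their values were seen. The comparison, the gene lists and the rules were chosen with earlier results of these data known. Some results that the naming rule gave are not reported here. A listed symbol of motilin matched no gene.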

Additional observations from a re-analysis of the deposited data

Results flagged for a closer look

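The effect of 6S-A Ngn3 differed between 8 days and 2 days for 3 genes in a test of the difference itself (edgeR, joint fit of 7 groups). The control was the no-color cells at 8 days and GFP-only cells at 2 days, so time and control cannot be told apart. For Fads3, a fatty acid desaturase family gene, the log2 effect was 2.81 ± 0.41 higher at 8 days (adjusted p = 0.0196), with 61.0 CPM against 19.0 CPM in no-color cells at 8 days and 25.3 CPM against 54.7 CPM in GFP-only cells at 2 days. For Gal the effect at 8 days minus that at 2 days was -6.51 ± 1.06 (adjusted p = 0.0334). For Lrpap1, a chaperone of lipoprotein receptors, it was -1.78 ± 0.29 (adjusted p = 0.0334), with 275 against 230 CPM at 8 days and 432 against 104 CPM at 2 days. No gene passed in edgeR with only the first pool of each replicate (1015 genes at an unadjusted p under 0.05), or without replicates 1 or 2 of 6S-A Ngn3 at 2 days, replicate 2 of 6S-A Ngn3 at 8 days, replicate 3 of the GFP-only cells or any 1 of the no-color replicates (734 to 1217), while DESeq2 on all samples called 75 genes.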

How the results depend on the processing

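The 115 called genes became 502 with DESeq2, 583 without a filter on low counts, 397 with the replicate block, 337 against the mean of both no-color groups and 34 with passage 2 alone. They became 83 with only the 2 groups compared in the fit and 97 with the first pool of each replicate. Leaving out 1 replicate gave 19 to 80. DESeq2 called 114 of the 115 and the block 114, RLE size factors 111, scran size factors 110, passage 2 alone 27, and the fit without no-color replicate 3 19. The fit of only the 2 groups compared called 69 of them, and so did the first pool of each replicate. DESeq2 gave 62.6% of its calls as higher, the block 58.9% and the fit without a filter 59.2%, against 71.3%. The share was 80.1% against the mean of both no-color groups, 80.7% with only the 2 groups compared and 97.1% with passage 2 alone. Over all alternatives it ranged from 56.7% (first pool of each replicate) to 98.4% (without 6S-A Ngn3 replicate 3). The difference between the effects of 6S-A and WT Ngn3 had 104 calls without a filter on low counts (97 higher, 7 lower), and 0 to 0 with 1 replicate left out, where 398 to 1268 genes had an unadjusted p under 0.05. The difference between the time points had 75 calls with DESeq2, 103 without a filter, 11 with the block, 5 without library limits, 0 with the first pool only and 0 to 4 with 1 replicate left out. The cause was not tested. With 1 replicate left out the log2 fold change of Gip ranged from -0.56 to 1.70 and that of Spx from -3.84 to 4.47, with both lowest values without 6S-A Ngn3 replicate 1. Of the other values of named genes, 486 kept their direction and side of the threshold, 140 no longer passed and 13 newly passed. Of the counts of list members, 920 stayed within 1.5 times and 236 did not. Apart from Tmeff2 the block ended no call. Depth limits the no-color side: 18 of the 82 higher genes had at most 3 reads there, so their size is a bound or a wide interval. With 3 replicates a group and 1 to 3 pools each, replicate 3 rests on 1 pool.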
